A study of Mus musculus with 12 samples.

Results

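Igf2bp1, Igf2bp2, Igf2bp3, Lin28a, Lin28b, Hmga1, Hmga2 and Arid3a were followed in splenic CD8+ T cells of C57BL/6 mice treated with an EZH2 inhibitor (EZH2i, 6 libraries) or with its DMSO control (6 libraries). These 8 genes were taken by symbol out of 24421 symbols in the deposited count tables. They were chosen by the response of one of them, Igf2bp3, the strongest called gene between these same groups, and the others were added as its family members and as partners known from fetal lymphocytes. The EZH2i against DMSO difference of Igf2bp3 is therefore a description here, with no test. All libraries held polyadenylated RNA from cells of one mouse strain, and no genetic change is named in the labels. The sources used here do not give the inhibitor's name, dose or duration, or the age and number of the mice. The drug's target, EZH2, places the repressive methyl mark of Polycomb on histone H3.

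Many of these genes are active in the embryo and fetus and are silenced in most adult tissues. LIN28A and LIN28B are RNA-binding proteins that block the maturation of let-7 microRNAs, and let-7 microRNAs in turn repress mRNAs that carry matching sites, among them those of Lin28, Hmga2 and Igf2bp genes. In mouse fetal blood-forming progenitors this circuit helps set a fetal type of lymphocyte output, and Lin28b, Igf2bp3 and Arid3a have each been tied to fetal B cell development. IGF2BP proteins bind mRNAs and affect their stability, location and translation. HMGA proteins bend AT-rich DNA, and ARID3A is a DNA-binding factor best known from B cells and the early embryo.

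The sequence that ties these genes together in the literature is the let-7 seed, bases 2 to 8 of the mature microRNA, so it is shown before the values. The RefSeq (GRCm38.p6) mature sequences used here covered 11 let-7 and miR-98 loci under 9 mature names, and all 11 shared 1 seed. Mirlet7a-2, another let-7 entry of the count tables, was not among these loci. A pair of let-7 members and miR-98 are printed 5′ to 3′ with the seed in capitals:
let-7a-5p (from Mirlet7a-1, chr13:48538239-48538260, minus strand): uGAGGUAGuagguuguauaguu
let-7g-5p (from Mirlet7g, chr9:106178846-106178867, plus strand): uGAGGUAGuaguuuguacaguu
miR-98-5p (from Mir98, chrX:151913229-151913250, plus strand): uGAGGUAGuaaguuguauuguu

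A match to that seed in a mRNA reads CTACCTC on the sense strand. In the longest annotated 3′ UTR of each gene (GENCODE M21, GRCm38), 8 of 8 members held at least 1 match, with 19 matches in all, of which 10 were followed by A. Igf2bp1, Lin28b and Hmga2 held 4 each, Lin28a and Arid3a 2 each, and Igf2bp2, Igf2bp3 and Hmga1 1 each. The match nearest to the stop codon of each member is printed 5′ to 3′ on the gene's own strand, with the seed match in capitals and the base after it in lower case:
Igf2bp3 (chr6:49086787-49086809, minus strand): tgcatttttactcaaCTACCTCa
Igf2bp2 (chr16:22059473-22059495, minus strand): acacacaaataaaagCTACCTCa
Igf2bp1 (chr11:95961778-95961800, minus strand): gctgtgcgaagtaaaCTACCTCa
Lin28a (chr4:134005189-134005211, minus strand): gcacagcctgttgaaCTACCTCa
Lin28b (chr10:45381022-45381044, minus strand): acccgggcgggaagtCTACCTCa
Hmga1 (chr17:27563277-27563299, plus strand): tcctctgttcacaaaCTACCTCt
Hmga2 (chr10:120364224-120364246, minus strand): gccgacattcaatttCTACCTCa
Arid3a (chr10:79953895-79953917, plus strand): aaggcaagtttctttCTACCTCa

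Among 10853 tested genes with an annotated 3′ UTR, 1170 (10.8%) held a match, and 14 (0.13%) held 3 or more. The UTRs of the members ran from 1183 bases in Hmga1 to 6337 in Igf2bp1, against a median of 1181 bases over the tested genes. At a UTR length of 0.8 to 1.25 times its own, a match was found in 13.6% of genes for Igf2bp3, in 12.9% for Igf2bp2 and in 36.8% for Igf2bp1. As many matches as in Igf2bp1 were found in 0 of 348 genes of like length, and as many as in Hmga2 in 1 of 1482. A match is a run of letters in the annotation, and neither binding nor repression at it was measured.

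**Figure D1:**
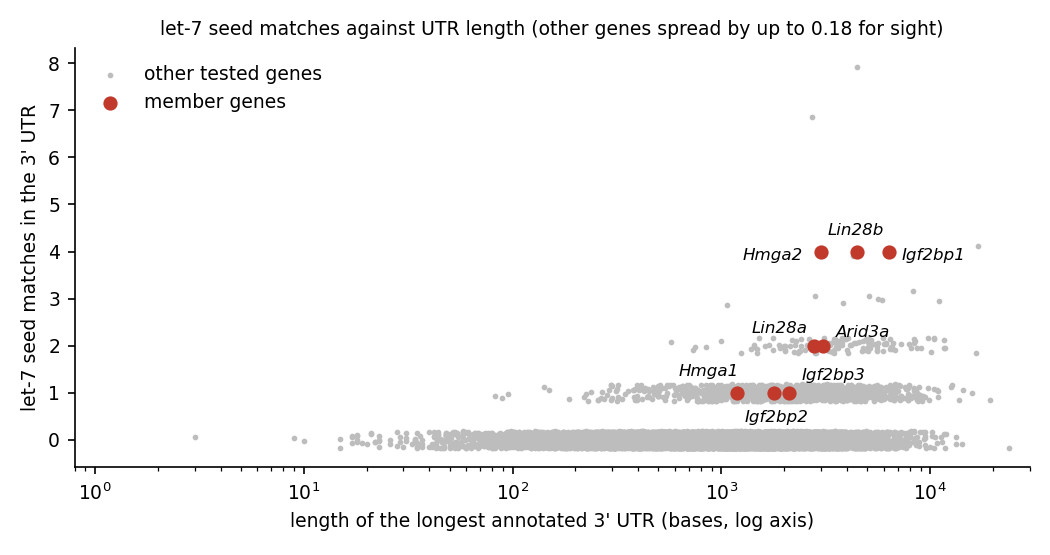
Matches to the let-7 seed in the longest annotated 3′ UTR (y axis, number of matches) against the length of that UTR (x axis, bases, log scale), with the 8 member genes in red and all other tested genes in grey, spread slightly up and down for sight. Igf2bp1, Lin28b and Hmga2 stand at 4 matches, where few other genes lie, while Igf2bp2, Igf2bp3 and Hmga1 stand at 1 match, a level held by many genes of like length.

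Library totals were 19610258 to 31206228 counts in EZH2i and 17215483 to 28092434 in DMSO. Whether the libraries within a group come from different mice is not stated in the labels, so each p reflects library-to-library spread that could be purely technical. The library numbered 6 stood apart in each group: on the first principal component (45.2% of the variance) EZH2i library 6 lay at -23.3 against 28.3 to 35.7 for the other EZH2i libraries, and DMSO library 6 at -64.1 against -20.1 to -9.58 for the other DMSO libraries. Ezh2 transcripts, whose protein is the drug's target, averaged 234 ± 26.6 CPM in EZH2i and 278 ± 29.4 CPM in DMSO (SD, n = 6 each; log2 fold change -0.25, adjusted p = 0.0833, or 0.000757 with the replicate number as a block and 0.0184 without DMSO library 6), and an enzyme inhibitor need not alter them, so they do not check the labels. Expression is given as CPM relative to the TMM-scaled library size, and adjusted p-values come from the quasi-likelihood test in edgeR, adjusted by Benjamini-Hochberg over 11727 tested genes. T cell markers summed to 2821 to 4010 CPM in EZH2i and 3746 to 4966 CPM in DMSO, B cell markers to 14.8 to 21.9 CPM and 19.2 to 25.3 CPM, so the labelled cell type was matched by its markers, of which 3 of 6 were called lower in EZH2i.

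Of the 8 members, 4 had enough counts to be tested: Igf2bp3, Igf2bp2, Hmga1 and Arid3a. Of the 3 tested members other than Igf2bp3, Hmga1 was called higher in EZH2i (adjusted p under 0.05) and 0 were called lower. Over all 11727 tested genes 13.3% were called higher and 6.05% lower. Since the members were chosen from this very contrast, nothing is read from their count. The remaining members, Igf2bp1, Lin28a, Lin28b and Hmga2, had between 1 and 27 counts summed over the 6 libraries of a group in which any was found.

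Igf2bp3, the IGF2BP paralog most often described as oncofetal, was low in every DMSO library and higher in every EZH2i library. It had 27.5, 30.0, 32.2, 29.9, 26.9 and 35.9 CPM in EZH2i libraries 1 to 6, against 2.26, 1.88, 2.94, 2.51, 1.73 and 3.10 CPM in DMSO libraries 1 to 6. The lowest EZH2i library lay far above the highest DMSO library, and the spread within each group was small beside the gap between them. The means were 30.4 ± 3.30 CPM in EZH2i and 2.40 ± 0.555 CPM in DMSO (SD, n = 6 each), a log2 fold change of 3.67 (SE 0.15). Summed over a group it had 4973 counts in EZH2i and 316 in DMSO, a ratio of 13.1 per scaled count (exact 95% interval 11.7 to 14.8, counting error only). Leaving out each library in turn kept the log2 fold change between 3.58 and 3.75, and without both libraries numbered 6 it was 3.71. Since this difference chose the members, its SE, interval and range over libraries left out only describe it. They do not allow for that choice and are no support for the difference.

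**Figure D2:**
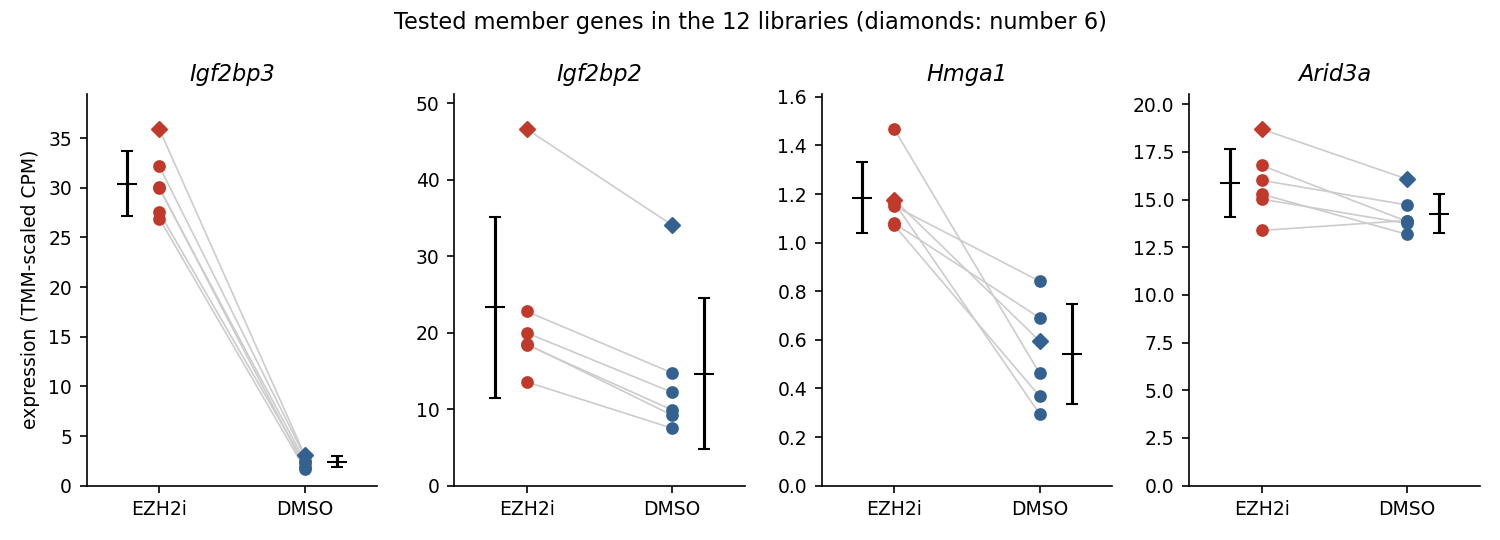
Expression (y axis, TMM-scaled CPM, a separate scale per gene) of the 4 tested members in each EZH2i and DMSO library, with grey lines joining same-numbered libraries, diamonds for number 6, and bars for the mean and SD of 6 libraries. Igf2bp3 and Hmga1 show no overlap between groups, Igf2bp2 is highest in both libraries numbered 6, and the Arid3a groups overlap.

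Igf2bp3 lies on the minus strand at chr6:49085223-49214957 (GRCm38), and its 3′ end runs into the neighbouring gene Malsu1 on the other strand, with 1529 exonic bases in common. Of the 75-base windows along Igf2bp3 transcripts, 17.84% fall in sequence shared with Malsu1, and the sources used here do not say whether counting used strand. Malsu1, a mitochondrial ribosome assembly factor, had 10.2 ± 2.16 CPM in EZH2i and 8.02 ± 0.637 CPM in DMSO (SD, n = 6 each), a log2 fold change of 0.35 with an adjusted p of 0.101. With the replicate number as a block that p was 0.0255, and without EZH2i library 1 it was 0.0159. Malsu1 lay at 6.63 to 12.4 CPM in EZH2i libraries, below Igf2bp3 in each of them, and at 6.84 to 8.68 CPM in DMSO libraries, above Igf2bp3 in each of them. The let-7 seed match of Igf2bp3 printed above lies just outside the shared stretch, which ends at position 49086751.

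Igf2bp2, the paralog that adult tissues express and that binds metabolic and mitochondrial mRNAs, was more variable. It had 22.8, 18.5, 20.0, 13.5, 18.4 and 46.6 CPM in EZH2i libraries 1 to 6, against 14.7, 9.20, 12.2, 7.50, 9.89 and 34.1 CPM in DMSO libraries 1 to 6. The groups overlapped, the library numbered 6 was by far the highest in each, and EZH2i was higher in 6 of 6 same-numbered pairs. The share of all tested genes with such a count of pairs is not given here, so this count only describes Igf2bp2. The means were 23.3 ± 11.8 CPM in EZH2i and 14.6 ± 9.86 CPM in DMSO (SD, n = 6 each), and the log2 fold change of 0.68 (SE 0.38) did not pass the test (adjusted p = 0.238). With the replicate number as a block it was 0.75 with an adjusted p of 1.91e-06, in a fit that called 24.7% of all tested genes higher. Without both libraries numbered 6 it was 0.81 (adjusted p = 0.000454; 23.9% of tested genes called higher), with 18.6 ± 3.34 CPM in the other 5 EZH2i libraries and 10.7 ± 2.81 CPM in the other 5 DMSO libraries. Without DMSO library 6 alone it was 1.12 (adjusted p = 0.0152), and without EZH2i library 6 alone 0.36.

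Igf2bp1, which is expressed in the embryo and binds Myc and Actb mRNAs, was close to absent. It had 1 count in EZH2i library 4 and 2 in EZH2i library 6, and 0 counts in the other 4 EZH2i libraries and in all 6 DMSO libraries. A DMSO group total of 0 allows up to 0.0222 CPM (3 counts over the group), above the 0.0186 CPM that the 3 counts amount to in EZH2i, so no difference was detectable at this depth.

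Levels of the paralogs can be compared once divided by exon length. Per kb of exon, Igf2bp3 stood at 3.73 CPM in EZH2i and 0.295 CPM in DMSO, and Igf2bp2 at 3.15 CPM in EZH2i and 1.97 CPM in DMSO. Igf2bp3 made up 52.3, 59.5, 59.4, 66.7, 57.0 and 41.2% of the summed Igf2bp2 and Igf2bp3 level per kb in EZH2i libraries 1 to 6, against 12.2, 15.6, 18.0, 23.3, 13.7 and 7.62% in DMSO libraries 1 to 6. In 5 of 6 EZH2i libraries Igf2bp3 was the more abundant paralog, and in none of the 6 DMSO libraries was it so. The shares averaged 56.0 ± 8.65% in EZH2i and 15.1 ± 5.33% in DMSO (SD, n = 6 each), and the libraries numbered 6, with the highest Igf2bp2, had the lowest share in each group. With the length of the longest coding transcript in place of all exons, the shares averaged 55.8 ± 8.65% and 14.9 ± 5.29%. This share contains the Igf2bp3 level that chose the members, so it is given with no test.

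**Figure D3:**
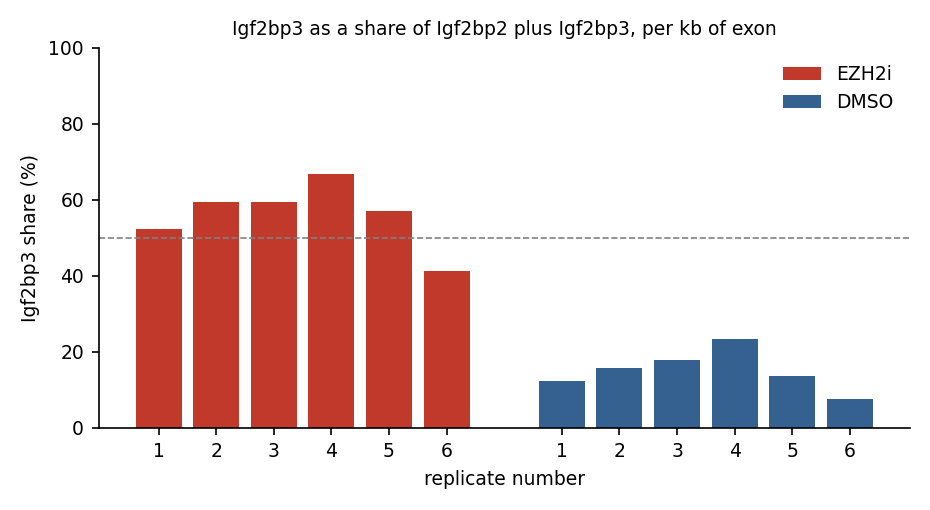
Igf2bp3 as a share of the summed Igf2bp2 and Igf2bp3 expression per kb of exon (y axis, percent) in each library (x axis, replicate number), with a dashed line at 50%. EZH2i bars run from 41.2 to 66.7% and all stand above the DMSO bars, which run from 7.62 to 23.3%.

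The promoters of this pair are printed because their levels are set side by side above, and because CpG-rich promoters are the usual seat of Polycomb in mouse cells. RefSeq (GRCm38.p6) gave promoters for 6 of 8 members, and those of Igf2bp1 and Arid3a are not shown. The 250 bases before the annotated start, 5′ to 3′ on the gene's strand with each CG in capitals, were:
Igf2bp3 promoter (chr6:49214955-49215204, minus strand): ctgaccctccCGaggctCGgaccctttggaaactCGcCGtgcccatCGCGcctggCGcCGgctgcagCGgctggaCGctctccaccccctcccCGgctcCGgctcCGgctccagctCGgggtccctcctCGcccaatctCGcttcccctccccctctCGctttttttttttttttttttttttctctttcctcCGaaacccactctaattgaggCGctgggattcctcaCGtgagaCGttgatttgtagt
Igf2bp2 promoter (chr16:22163300-22163549, minus strand): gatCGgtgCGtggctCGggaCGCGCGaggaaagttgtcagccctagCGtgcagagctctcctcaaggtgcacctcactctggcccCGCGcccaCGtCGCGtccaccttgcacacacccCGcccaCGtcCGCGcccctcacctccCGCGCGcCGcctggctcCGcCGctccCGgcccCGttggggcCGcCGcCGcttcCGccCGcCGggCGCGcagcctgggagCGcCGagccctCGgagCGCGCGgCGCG

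The Igf2bp3 window held 21 CG and the Igf2bp2 window 40, against a median of 6 over 32851 promoter windows of the same length. At least as many CG were found in 16.35% of all windows for Igf2bp3 and in 1.31% for Igf2bp2. The Hmga1 window (the first of a pair of starts) held 34, while those of Hmga2, Lin28a and Lin28b held 8, 7 and 6. CG reads the same on both strands. No histone mark was measured in these libraries, and the count of CG says nothing of whether a promoter was bound.

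Among the let-7 antagonists, Lin28a, expressed in pluripotent cells and early embryos, had 6, 0, 3, 6, 3 and 9 counts in EZH2i libraries 1 to 6, against 3 counts in DMSO library 5 and 0 in the other 5 DMSO libraries. Reads were found in 5 of 6 EZH2i and 1 of 6 DMSO libraries, and the groups overlapped. The summed 27 counts in EZH2i and 3 in DMSO give a ratio of 7.52 with an exact 95% interval of 2.31 to 38.7, for counting error only. A fit without the filter on low counts gave a log2 fold change of 2.69 with an adjusted p of 0.0803, and so no call. The level itself was 0.167 CPM in EZH2i and 0.0222 CPM in DMSO over the group's summed counts.

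Lin28b, the paralog tied to fetal blood formation, had 1, 0, 0, 1, 0 and 5 counts in EZH2i libraries 1 to 6, and 1 count in DMSO library 2 and 2 in DMSO library 5. The ratio of 7 to 3 summed counts was 1.95 with an interval of 0.445 to 11.7, so no difference was detectable at this depth. The let-7 hairpin entries of the count tables had between 0 and 4 counts in any library and were not tested. Mature let-7 is not polyadenylated and was not measured.

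Hmga1, an architectural chromatin protein of proliferating cells, was higher in EZH2i at a low level. It had 1.47, 1.07, 1.15, 1.16, 1.08 and 1.18 CPM in EZH2i libraries 1 to 6, against 0.462, 0.368, 0.841, 0.296, 0.691 and 0.595 CPM in DMSO libraries 1 to 6. The groups did not overlap, as was the case with EZH2i higher for 7.5% of all tested genes. Means of 1.19 ± 0.145 CPM in EZH2i and 0.542 ± 0.206 CPM in DMSO (SD, n = 6 each) gave a log2 fold change of 1.14 (SE 0.24, adjusted p = 0.00517), from 189 and 70 summed counts. Hmga1 is among the 2932 tested genes with the lowest expression, of which 30.4% were called higher. Of the 75-base windows along its transcripts, 46.9% also occur in another gene, and the sources used here do not say how multi-mapping reads were counted, so the level of Hmga1 is uncertain.

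Hmga2, the fetal paralog and a classic let-7 target, had 1 count in EZH2i library 4 and 5 counts in DMSO library 1, and 0 in the other 10 libraries. The Hmga2 ratio of 0.167 had an exact 95% interval of 0.00353 to 1.49, and its DMSO counts came from 1 library.

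Arid3a had 16.8, 15.3, 16.0, 15.03, 13.4 and 18.7 CPM in EZH2i libraries 1 to 6, against 13.9, 13.2, 14.7, 13.8, 13.9 and 16.1 CPM in DMSO libraries 1 to 6. EZH2i was higher in 5 of 6 same-numbered pairs, which again is only a description, and the groups overlapped. The means were 15.9 ± 1.79 CPM in EZH2i and 14.2 ± 1.02 CPM in DMSO (SD, n = 6 each), and the log2 fold change of 0.16 (SE 0.09) did not pass the test (adjusted p = 0.255, or 0.0946 with the replicate block).

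**Figure D4:**
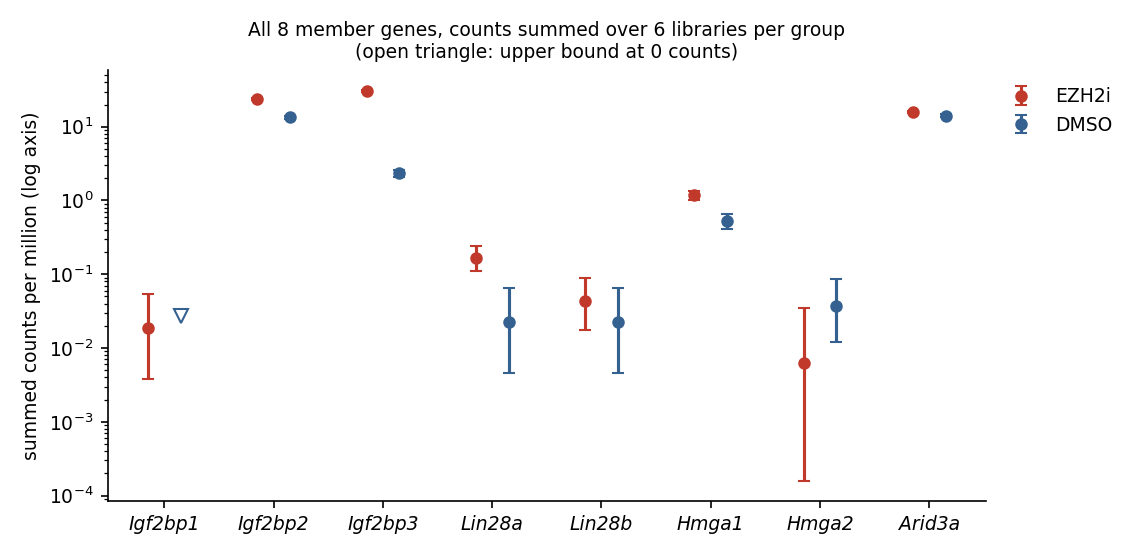
Summed counts as CPM (y axis, log scale) of all 8 members in EZH2i and DMSO, with exact 95% intervals for counting error only and an open triangle for the upper bound where a group had 0 counts. Igf2bp3 shows the widest gap between groups among the 4 tested members, while the intervals of Igf2bp1, Lin28b and Hmga2 overlap between groups.

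Per kb of exon, the order of the members in EZH2i was Igf2bp3 (3.73 ± 0.404 CPM), Igf2bp2 (3.15 ± 1.59), Arid3a (2.85 ± 0.323), Hmga1 (0.558 ± 0.0683) and then Lin28a (0.0438 ± 0.0292), with the others below (SD, n = 6). In DMSO it was Arid3a (2.56 ± 0.184 CPM), Igf2bp2 (1.97 ± 1.33), Igf2bp3 (0.295 ± 0.0680) and Hmga1 (0.255 ± 0.0969), with the others below (SD, n = 6). Over all libraries, the EZH2i levels of Igf2bp3 and Arid3a both lay within the SD of Igf2bp2, and in DMSO so did that of Arid3a, while Igf2bp3 and Hmga1 in DMSO lay within 1 SD of each other. The wide SD of Igf2bp2 rests on the libraries numbered 6. Without them Igf2bp3 (3.59 ± 0.260 CPM per kb), Arid3a (2.75 ± 0.229) and Igf2bp2 (2.52 ± 0.452) followed each other in EZH2i, and Arid3a (2.50 ± 0.0991) stood above Igf2bp2 (1.446 ± 0.38002) in DMSO (SD, n = 5). The order in DMSO also turned with the length used. Per kb of the longest coding transcript, Igf2bp3 (6.999 ± 0.759 CPM) and Igf2bp2 (5.98 ± 3.03) led Arid3a (2.96 ± 0.335) in EZH2i, and Igf2bp2 (3.74 ± 2.53) led Arid3a (2.66 ± 0.191), Igf2bp3 (0.553 ± 0.128) and Hmga1 (0.271 ± 0.103) in DMSO (SD, n = 6), the SDs of Igf2bp3 and Hmga1 no longer meeting.

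The members' deviations from their group means were also set side by side over the 12 libraries, which share their batch structure and scaling. Pearson's r between the deviations was 0.593 for Igf2bp2 and Igf2bp3, 0.779 for Igf2bp2 and Arid3a, and 0.639 for Igf2bp3 and Arid3a. Without the libraries numbered 6 these values were 0.108, 0.391 and 0.389. With Hmga1 the values were 0.335 for Igf2bp2, 0.172 for Igf2bp3 and 0.396 for Arid3a, and 0.502, 0.104 and 0.510 without the libraries numbered 6.

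The genes most like Igf2bp3 across the 12 libraries, by Pearson's r of log2 CPM, were Dock9 (0.9943), Dapk1 (0.9941), Mllt4 (0.9926), Ston2 (0.9881) and Kit (0.9872). Kit, the receptor for stem cell factor, averaged 31.4 ± 10.7 CPM in EZH2i and 3.84 ± 0.750 CPM in DMSO, and Ston2, an endocytosis adaptor, 5.48 ± 0.707 CPM in EZH2i and 1.44 ± 0.1104 CPM in DMSO (SD, n = 6 each). Such an r is set mainly by the gap between the groups. On deviations from the group means, which leave that gap out, the highest value was 0.8905 for Rasgrp4. Then came 0.8897 for Sepn1, 0.8833 for Pdcd1lg2, 0.8769 for Pdzd4 and 0.8725 for Zfp324. These are the top of a ranking over 12 libraries. Igf2bp3 was itself highest in library 6 of each group (35.9 CPM in EZH2i, 3.10 CPM in DMSO). EZH2i library 6 stood apart for Rasgrp4, at 25.2 CPM against 12.7 to 13.6 CPM in the other EZH2i libraries. It did so for Pdcd1lg2 too, at 4.43 CPM against 1.38 to 2.25 CPM. Sepn1, Pdzd4 and Zfp324 had no library singled out. Whether the values hold without the libraries numbered 6 was not tested. Zfp324 itself averaged 8.80 ± 1.06 CPM in EZH2i and 9.03 ± 1.54 CPM in DMSO (SD, n = 6 each; log2 fold change -0.03).

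Some markers of other cell types were also higher in EZH2i. The 7 progenitor markers summed to 24.4 to 53.1 CPM in EZH2i libraries and 3.68 to 5.36 CPM in DMSO libraries, and Kit was the only one tested and the only one called. Mecom was at 0 in all 12 libraries, and Cd34 had at most 0.244 CPM in EZH2i and 0.0924 CPM in DMSO. The 5 NK cell markers summed to 33.1 to 82.9 CPM in EZH2i and 5.60 to 9.61 CPM in DMSO, and Gzma, which CD8+ T cells also express, gave the most in 6 of 6 EZH2i libraries and in 5 of 6 DMSO libraries, all but number 6, where it had 0.953 CPM. Gzma and Klrb1c were called higher, while Klre1, the other tested NK cell marker, was not called (log2 fold change -0.02, adjusted p = 0.949). Klra8 was at 0 in all libraries and Ncr1 had at most 0.0946 CPM in EZH2i and 0.119 CPM in DMSO. CD4 T cell markers (23.8 to 34.8 CPM in EZH2i, 17.4 to 23.0 CPM in DMSO), myeloid (5.20 to 16.2 and 2.86 to 8.17 CPM), dendritic (2.52 to 8.54 and 1.81 to 3.18 CPM), erythroid (10.1 to 14.8 and 8.03 to 11.04 CPM) and stromal or endothelial markers (61.2 to 184 and 88.7 to 196 CPM) were lower in sum than T cell markers. Of these, the CD4 lineage factor gene Zbtb7b (log2 fold change 0.60, adjusted p = 0.00654), the integrin gene Itgam (1.28, adjusted p = 0.0112) and the receptor gene Pdgfrb (2.92, adjusted p = 0.000266) were called higher in EZH2i. The other tested markers of these lists were not called (adjusted p 0.0831 to 0.732). They were Foxp3 (log2 fold change 0.38), Fcgr3 (0.195), Batf3 (0.63), Gata1 (0.28), Col1a1 (1.13) and Pecam1 (-0.15). Pecam1, at 59.8 to 180 CPM in EZH2i and 87.8 to 194 CPM in DMSO, made up most of the stromal or endothelial sum. Pdgfrb had 0.960 to 4.10 CPM in EZH2i and 0.119 to 0.631 CPM in DMSO, and the stromal marker Dcn was at 0 in all libraries. The part of other cells in the Igf2bp3 level was not tested, and in bulk RNA fewer cells of a type and less RNA per cell cannot be told apart.

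Around these genes, 5 lists of the pathway were read from the same fit, with the 8 members left out. Over all tested genes the median log2 fold change was -0.01, with 13.3% called higher and 6.05% lower, and each list's counts are read against these shares.

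In the machinery that makes or blocks let-7, 21 of 23 measured genes were tested, 2 were called higher and 0 lower, around a median of -0.01 on the log2 scale. These counts are near the shares of all genes and are not a result about the list. Those not tested were Ago4, with 305 summed counts in EZH2i and 25 in DMSO, and Trim71, with 1 in each group. Without the filter on low counts, 3 genes of the list were called higher and 0 lower. Prkra, a partner of Dicer, averaged 12.04 ± 2.25 CPM in EZH2i and 6.83 ± 1.19 CPM in DMSO (log2 fold change 0.81, adjusted p = 0.00244). Smad3, a TGF-beta signal carrier that also joins the Drosha complex, averaged 131 ± 26.6 CPM in EZH2i and 80.5 ± 13.5 CPM in DMSO (log2 fold change 0.71, adjusted p = 0.00722; SD, n = 6 each for both). With the replicate block, a fit that called 24.7% of all tested genes higher and 24.3% lower, 5 were higher and 6 lower. Drosha, Dicer1 and the uridylyltransferase gene Zcchc11, which acts with LIN28A, had log2 fold changes of -0.24, -0.03 and -0.01, named here after their values were seen, and none was called without the block.

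Of 49 measured let-7 targets other than the members 33 were tested, 5 were called higher and 2 lower, around a median of 0.06 on the log2 scale, and these counts too are near the shares of all genes. Those higher were Nr6a1, an embryonic nuclear receptor, at 2.66 ± 0.716 CPM in EZH2i and 1.05 ± 0.339 CPM in DMSO, Dusp9, a phosphatase of MAP kinases, at 2.40 ± 0.494 CPM in EZH2i and 1.01 ± 0.289 CPM in DMSO, Igf1r, Eomes and Irs2. Eomes, a transcription factor of memory and effector CD8+ T cells, averaged 140 ± 76.9 CPM in EZH2i and 70.5 ± 25.5 CPM in DMSO, and its call (adjusted p = 0.0339) was lost without any of DMSO libraries 1 to 5 or EZH2i library 1, with adjusted p between 0.0560 and 0.0763 in those fits. Those lower were the GTPase gene Nras (119 ± 9.39 CPM in EZH2i, 152 ± 12.3 CPM in DMSO; log2 fold change -0.35) and the nucleotide-making Rrm2 (439 ± 30.3 CPM in EZH2i, 539 ± 43.4 CPM in DMSO; log2 fold change -0.30; SD, n = 6 each). With the block 10 were higher and 6 lower.

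Across all tested genes with a 3′ UTR, members left out, 13.3% of 9683 genes with no let-7 seed match were called higher, 16.0% of 1029 genes with 1 match and 16.1% of 137 genes with 2 or more. The shares called lower were 6.34%, 5.34% and 2.92% in the same order, the last from 4 genes. The median log2 fold changes of these classes were -0.02, 0.01 and 0.06. The classes also differed in median UTR length (1064, 2177 and 3804 bases) and in median log2 CPM (5.03, 4.84 and 4.58), whose part in these shares was not tested.

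Of 25 measured mRNAs known to be bound by IGF2BP proteins, mostly in human cell lines, 17 were tested, 3 were called higher and 5 lower, around a median of -0.03 on the log2 scale. The higher ones were Pdlim7 (13.6 ± 2.16 CPM in EZH2i, 8.54 ± 1.66 CPM in DMSO; log2 fold change 0.66), the adhesion receptor gene Cd44 (176 ± 33.0 CPM in EZH2i, 130 ± 17.1 CPM in DMSO; 0.45 on the log2 scale) and the ubiquitin ligase gene Btrc (0.44 on the log2 scale; SD, n = 6 each). The lower ones were Hdgf, Actb, Tk1, Srf and Sirt1, with log2 fold changes of -0.42, -0.40, -0.28, -0.28 and -0.24. Actb, the beta-actin gene bound by IGF2BP1 in several species, averaged 3746 ± 545 CPM in EZH2i and 4929 ± 407 CPM in DMSO (SD, n = 6 each; adjusted p = 0.00908). Leaving out 1 library ended the call of Cd44 without DMSO library 1, 2, 5 or 6 or EZH2i library 1, 2, 3, 4 or 5 (adjusted p 0.0519 to 0.0809). It ended that of Hdgf without EZH2i library 2, 3, 4 or 5 (0.0530 to 0.0772), that of Tk1 without DMSO library 1, 3 or 5 or EZH2i library 1, 2, 3 or 5 (0.0502 to 0.0783) that of Srf without EZH2i library 4 (0.0680) and that of Sirt1 without EZH2i library 5 (0.0605). Upper-quartile scaling also ended the calls of Tk1 (adjusted p = 0.114), Srf (0.0503) and Sirt1 (0.112). Myc, a much studied IGF2BP1 target, lay at -0.12 on the log2 scale (adjusted p = 0.809).

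In the insulin-like growth factor axis, for which the IGF2BP family is named, 8 of 20 measured genes were tested, 4 were called higher and 0 lower, and the median log2 fold change was 0.61. Igf1r, the receptor for IGF1 and IGF2, averaged 56.2 ± 9.98 CPM in EZH2i and 24.7 ± 4.45 CPM in DMSO, with no overlap (log2 fold change 1.18, adjusted p = 0.000143). The adaptor gene Irs2 averaged 11.4 ± 1.78 CPM in EZH2i and 6.66 ± 1.72 CPM in DMSO (log2 fold change 0.77, adjusted p = 0.0111). Grb10, an imprinted adaptor that dampens insulin signals, averaged 1.16 ± 0.266 CPM in EZH2i and 0.580 ± 0.275 CPM in DMSO (log2 fold change 1.02, adjusted p = 0.0345), and Igf2r, the scavenger receptor of IGF2, 166 ± 9.002 CPM in EZH2i and 144 ± 10.9 CPM in DMSO (log2 fold change 0.20, adjusted p = 0.0406; SD, n = 6 each for all 4). The call of Grb10 was lost without DMSO library 2, 3 or 5 or EZH2i library 1, 2 or 3 (adjusted p 0.0544 to 0.0830), and that of Igf2r without DMSO library 1, 2, 3, 5 or 6 or EZH2i library 2, 3, 4 or 5 (0.0524 to 0.111). Without the filter on low counts the adjusted p was 0.0507 for Grb10 and 0.0914 for Igf2r, and with RLE scaling 0.0582 for Igf2r. The list had 2 calls without DMSO library 2, 3 or 5 or EZH2i library 3. Igf2, whose mRNA gave the family its name, had 13 summed counts in EZH2i and 0 in DMSO, and H19, the neighbouring noncoding RNA, 4 and 0, and neither was tested.

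Of 35 measured fetal and oncofetal genes 12 were tested, 5 were called higher and 0 lower, around a median of 0.97 on the log2 scale. Dlk1, an imprinted surface protein of fetal tissues, averaged 6.76 ± 1.93 CPM in EZH2i and 0.495 ± 0.291 CPM in DMSO, with no overlap (log2 fold change 3.80, adjusted p = 8.01e-06). Cd93, a surface protein of early B cells and endothelium, averaged 25.2 ± 3.63 CPM in EZH2i and 8.43 ± 1.16 CPM in DMSO (log2 fold change 1.58, adjusted p = 3.14e-06). Plag1, a zinc finger factor of fetal growth, averaged 3.53 ± 1.22 CPM in EZH2i and 1.16 ± 0.376 CPM in DMSO (log2 fold change 1.62, adjusted p = 0.00170; SD, n = 6 each for all 3), but the EZH2i library numbered 6, at 1.39 CPM, was below the DMSO library numbered 6, at 1.79 CPM. Nr6a1, counted among the let-7 targets too, and Epcam (log2 fold change 0.92, adjusted p = 0.00726) were the other calls. Most of the list was too low to be tested, and 9 of the 35 genes had fewer than 3 counts over all libraries. Genes low in DMSO enter the tested set through EZH2i alone where they are high there, so the counts and medians over the tested genes of a list are no support for a direction.

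**Figure D5:**
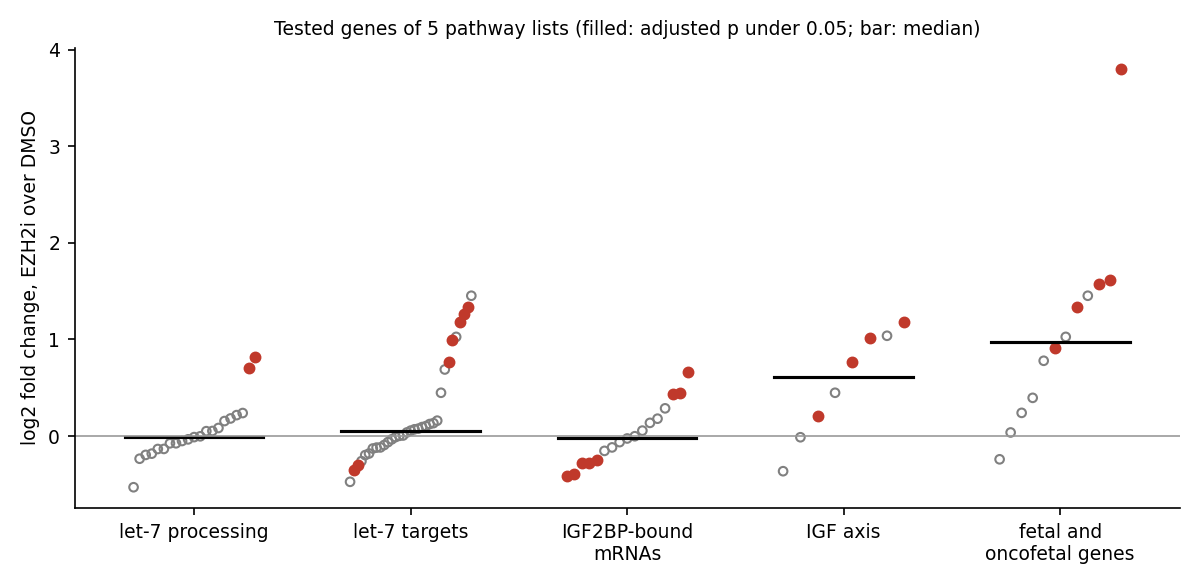
Log2 fold changes of EZH2i over DMSO (y axis) for the tested genes of 5 lists, members left out, with filled points for genes called at an adjusted p under 0.05 and bars for list medians. The let-7 processing, let-7 target and IGF2BP-bound lists centre near 0 with medians of -0.01, 0.06 and -0.03, and the IGF axis and fetal lists have medians of 0.61 and 0.97.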

How the data were processed

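Polyadenylated RNA of 12 libraries was sequenced as 75-base single-end reads from a stranded kit, per the labels' protocols. The deposited values are raw read counts per gene symbol, made by the authors on GRCm38 with featureCounts, TopHat2 2.1.1 and SAMtools 1.9 after Trimmomatic 0.38 and FastQC 0.11.7, per the submitters' processing notes. The sources used here give neither the annotation nor how strand and multi-mapping reads were handled. Groups follow the treatment in the labels.

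Counts were analysed with edgeR 4.0.16 in R 4.3.3: filterByExpr, which kept 11727 of 24421 symbols, TMM scaling, and the two-sided quasi-likelihood test with group alone, adjusted by Benjamini-Hochberg and called under 0.05. A gene can pass the filter through 1 group alone. The SE is the log2 fold change divided by the square root of F. Intervals and the floor of 3 counts per group cover counting error only. Alternatives were RLE and upper-quartile scaling, DESeq2 1.42.0, no filter, a replicate block, leaving out each library, leaving out both libraries numbered 6, and transcript length. Tested on simulated counts for this comparison (11727 genes), the test recovered 29 of 67 genes changed 1.5-fold, 51 of 67 changed 2-fold and 63 of 66 changed 4-fold, with 7 false calls. The simulated libraries were drawn independently, with no deviation shared by same-numbered libraries and no library 6 set apart. These figures therefore need not hold for the real libraries.

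Both groups carry numbers 1 to 6, whose meaning the labels do not give. Libraries of the same number deviated together from their group means (r 0.213 to 0.847, all over 0.1). Same-numbered libraries were therefore set side by side, and the number entered the replicate block as an alternative. The main test used group alone and did not pair them. Without number 6 the lowest r was 0.0371, so the pairing of the others is not settled. Replicate libraries differed by more than sampling noise (a chi-square of 4.79 or more for each degree of freedom), so none was taken for a duplicate.

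The members, the lists of pathway and marker genes, the tests and the rules for named genes were chosen with earlier results of these data known. Of each pathway list, up to 4 genes called in each direction were named by size of change; Irs2 among the let-7 targets, Sirt1, Myc, Epcam, Igf2 and H19, Drosha, Dicer1 and Zcchc11 were added after their values were seen. Positions and UTRs are from GENCODE M21, and microRNAs and promoters from RefSeq.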

Additional observations from a re-analysis of the deposited data

Results flagged for a closer look

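In groups of 6, a library was singled out where its gap to the nearest other library exceeded Dixon's 95% critical value as a share of the group's range. Chance alone singles out about 1 in 20 groups. How many groups were examined is not given here, so the number singled out is not read against that rate. Of 21 such values 13 were EZH2i library 6, 7 were DMSO library 6 and 1 was EZH2i library 1.

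Igf2bp2 was singled out in both groups, at 46.6 CPM in EZH2i library 6, where the other 5 EZH2i libraries had 13.5 to 22.8 CPM, and at 34.1 CPM in DMSO library 6, where the other 5 DMSO libraries had 7.504 to 14.7 CPM. Hmga1 was highest in EZH2i library 1, at 1.47 CPM against 1.07 to 1.18 CPM in the other EZH2i libraries. No library was singled out for Igf2bp3 or Arid3a.

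In both groups library 6 was the lowest for Smad3 (77.8 CPM in EZH2i, 53.2 CPM in DMSO), Igf1r (36.4 CPM in EZH2i, 16.3 CPM in DMSO) and Cd44 (113 CPM in EZH2i, 95.3 CPM in DMSO), and the highest for Eomes (294 CPM in EZH2i, 119 CPM in DMSO). EZH2i library 6 was also the highest of its group for Nr6a1 (4.06 CPM), Hdgf (424 CPM), Actb (4830 CPM), Dlk1 (10.5 CPM), Kit (52.2 CPM), Rasgrp4 (25.2 CPM) and Pdcd1lg2 (4.43 CPM), and the lowest for Btrc (14.1 CPM). DMSO library 6 was also the lowest of its group for Ezh2 (223 CPM) and Irs2 (3.22 CPM).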

How the results depend on the processing

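Hmga1 stayed higher in EZH2i and called under every alternative run, and the Igf2bp3 log2 fold change, a description, lay between 3.58 and 3.75; Igf2bp2 crossed the threshold with the replicate block, without both libraries numbered 6 and without DMSO library 6, as given above, and Arid3a did not pass in any. The block changed no call of another member. Over all tested genes, 1557 higher and 709 lower became 2892 and 2849 with the replicate block and 2815 and 2455 without both libraries numbered 6; the lower count was 347 with upper-quartile scaling and 1125 with DESeq2. Higher calls made up 68.71% of all calls, 50.37% under the block and 83.84% under upper-quartile scaling. Leaving out each library gave 1297 to 2262 higher and 435 to 1817 lower, the highest of both without EZH2i library 6.

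In the lists, let-7 processing had 5 higher and 6 lower with the block, 6 and 5 without both libraries numbered 6, 4 higher with upper-quartile scaling and 1 lower with DESeq2, and 2 to 5 higher and 0 to 3 lower when each library was left out. The let-7 targets had 10 higher and 6 lower with the block, 9 and 6 without both libraries numbered 6, and 8 higher without the filter; the ranges over libraries left out were 5 to 9 higher and 2 to 6 lower. IGF2BP-bound mRNAs had 5 higher without the filter and without both libraries numbered 6, 2 lower with upper-quartile scaling, and 2 to 5 in each direction over libraries left out. The IGF axis ranged from 2 to 5 higher over libraries left out. Fetal and oncofetal genes had 8 higher without the filter, with the block and without both libraries numbered 6, 1 lower with DESeq2 and with the block, and 5 to 6 higher and 0 to 1 lower over libraries left out. The Zfp324 log2 fold change of -0.03 was 0.03 with upper-quartile scaling, and ran from -0.10 to 0.04 over libraries left out, with the sign turned without DMSO library 6. The cause of these shifts was not tested. Dividing by the longest transcript moved the per-kb levels of Igf2bp2 (to 5.98 CPM in EZH2i, 3.74 CPM in DMSO) and Igf2bp3 (to 6.999 CPM in EZH2i, 0.553 CPM in DMSO) and turned the order given above for DMSO. Depth limits Igf2bp1, Lin28a, Lin28b and Hmga2 to counts.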
